A study of Mus musculus with 16 samples.

Results

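The hedgehog signalling genes described here are Shh, Ptch1, Hhip, Boc, Cdon, Smo, Sufu, Gli1, Gli2 and Gli3. They were taken by name as a list of pathway genes, not by their values, and all 10 were found among the 55359 gene IDs of the deposited tables. All 10 also passed the filter on low counts, which left 21543 genes for testing. They were measured by sequencing of total RNA from the cortex of mouse fetuses at gestational day 16. The 16 libraries make up 8 groups of 2, set by parental ethanol exposure and by fetal sex. Paternal exposure means that the father alone was exposed, maternal exposure that the mother alone was exposed, and dual exposure that both parents were. Controls had neither exposure. Each exposure therefore has 4 libraries, 2 from male and 2 from female fetuses. The study asks whether drinking by the father alone can alter fetal development. Dose, timing of exposure and mouse strain are not stated in the labels. Whether replicates come from separate litters is not stated either, and p-values then reflect only the spread among these libraries, part of which may be technical.

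Hedgehog signalling passes a secreted ligand from one cell to the next. Without ligand the receptor Ptch1 holds the membrane protein Smo inactive, and Sufu together with processing of Gli2 and Gli3 keeps the target genes off. Ligand binding to Ptch1, helped by the co-receptors Boc and Cdon, releases Smo, which moves into the primary cilium and leads to activator forms of the Gli proteins. Gli1, Ptch1 and Hhip are themselves transcribed in response, so their RNA is commonly read as a measure of pathway activity. In the forebrain Shh patterns the ventral side and the midline, Gli3 acts mainly as a repressor that protects the dorsal, cortical side, and loss of pathway function causes midline and facial defects.

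No hedgehog gene passed the test in any of 16 comparisons between exposures or sexes. Levels are given as CPM, counts relative to the summed counts of a library after scaling by the TMM method of edgeR. On this scale Ptch1 was nearly the same in all 16 libraries. It averaged 87.5, 88.7 and 90.4 CPM after paternal, maternal and dual exposure, against 96.2 CPM in controls. Cdon, Gli2 and Gli3 differed up to 2.32-fold between libraries, moved together, and spread most within a single group, the female controls. Gli1, Hhip and Shh, at low levels, followed neither Ptch1 nor each other.

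Summed counts per library ran from 15336566 to 19966696 in male and from 26134287 to 35218456 in female libraries, so depth and sex cannot be told apart. The hedgehog genes together held 5704 to 17064 counts per library, or 0.0365 to 0.0513% of the total. All 8 markers of dorsal cortex passed the filter, with a summed level of 2120 to 2640 CPM, scaled by the TMM method of edgeR, in all libraries. Foxa2, which marks the Shh-producing floor plate, had 0 counts in all 16 libraries, and Ttr, the defining gene of choroid plexus, had 6 to 4384 counts. The female dual libraries had 0.872 and 0.86% of their counts on genes of the classes TEC (unconfirmed transcripts) and sense-intronic, against 0.28 to 0.534% in the other 14. Gene IDs without a symbol held 1.96 to 17.8% of counts in male and 1.73 to 2.43% in female libraries. The share was highest in male dual replicate 2, at 17.8%, and male paternal replicate 1, at 14.2%. These libraries also had the lowest TMM factors, 0.8354 and 0.8763. The part of this in the differences within males was not tested.

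Promoter sequence was matched by symbol for 7 of the 10 genes in a RefSeq table of mouse build GRCm38.p6, with 250 bases before to 50 bases after 1 start site per gene; Shh, Boc and Gli1 had no entry. The promoters of Cdon, Gli2 and Gli3 are shown because their RNA moved together across libraries, and that of Ptch1 because its RNA did not follow them. They are read 5′ to 3′ on the strand of the gene, with motif matches on either strand in capitals.
Cdon, chr9:35451826-35452125, plus strand: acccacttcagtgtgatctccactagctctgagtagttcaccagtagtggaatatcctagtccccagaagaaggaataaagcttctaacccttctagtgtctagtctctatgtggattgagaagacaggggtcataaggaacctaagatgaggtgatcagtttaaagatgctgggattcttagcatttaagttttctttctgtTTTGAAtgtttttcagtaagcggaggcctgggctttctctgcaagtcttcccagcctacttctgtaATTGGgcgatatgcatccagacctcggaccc
Gli2, chr1:119053570-119053869, minus strand: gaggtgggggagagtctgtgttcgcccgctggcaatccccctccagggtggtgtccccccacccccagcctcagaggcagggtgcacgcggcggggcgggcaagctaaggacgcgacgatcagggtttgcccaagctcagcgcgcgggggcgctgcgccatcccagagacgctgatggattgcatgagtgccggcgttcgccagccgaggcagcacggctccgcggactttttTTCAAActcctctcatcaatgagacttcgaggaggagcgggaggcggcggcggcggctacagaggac
Gli3, chr13:15463473-15463772, plus strand: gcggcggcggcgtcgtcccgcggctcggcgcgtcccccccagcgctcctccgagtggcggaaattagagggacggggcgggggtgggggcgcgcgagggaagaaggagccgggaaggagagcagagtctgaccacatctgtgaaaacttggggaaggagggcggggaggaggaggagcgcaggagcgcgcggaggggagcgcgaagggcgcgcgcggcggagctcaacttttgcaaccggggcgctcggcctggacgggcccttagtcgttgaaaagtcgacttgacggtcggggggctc
Ptch1, chr13:63565686-63565985, minus strand: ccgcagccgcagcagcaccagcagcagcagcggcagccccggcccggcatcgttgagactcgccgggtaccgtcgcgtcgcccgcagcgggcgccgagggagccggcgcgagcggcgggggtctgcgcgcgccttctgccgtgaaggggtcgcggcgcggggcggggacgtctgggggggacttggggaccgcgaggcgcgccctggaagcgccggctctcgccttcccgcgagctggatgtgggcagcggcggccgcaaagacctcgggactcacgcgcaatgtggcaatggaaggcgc

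The motifs searched were the consensus of Gli binding, GACCACCCA, the cell cycle homology element TTTGAA, and CCAAT. They were chosen with the values known, and the 3 motifs do not overlap in these windows. The Gli consensus stood in 0.253% of 32851 promoters of the table and in none of the 7 matched here. TTTGAA stood in 17.9% of all promoters, and in those of Cdon and Gli2. CCAAT stood in 37.4%, and in those of Cdon (its reverse complement) and Sufu. The Cdon promoter had 44.7% G and C, against 76.3% for Ptch1. A match is a string of letters in this window and describes no binding.

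Levels of different genes were compared per kilobase of exon, with exon lengths from GENCODE M21. On this scale Cdon was highest with a mean of 13.1 CPM per kilobase over 16 libraries (range 9.71 to 16.8), above 83.4% of the genes tested with a length. Boc followed with 8.79 (7.47 to 10) and Gli3 with 7.36 (4.74 to 11). Ptch1 at 6.39 (5.92 to 6.96), Sufu at 6.1 (5.28 to 7.04) and Smo at 5.98 (4.66 to 7.31) overlapped in range, as did Boc with Gli3. Differences between such neighbours were not tested. Gli2 stood at 3.04 (2.2 to 4.85). The ligand and the feedback genes apart from Ptch1 were lowest: Gli1 at 0.86 (0.597 to 1.04), Shh at 0.723 (0.407 to 1.2) and Hhip at 0.386 (0.262 to 0.538) CPM per kilobase. RNA for Ptch1, both co-receptors, both transducers, Gli2 and Gli3 thus lay above the median of genes tested, and RNA for Gli1, Hhip and the ligand below it. Cells of one type becoming fewer and less RNA per cell cannot be told apart in such bulk tissue.

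**Figure D1:**
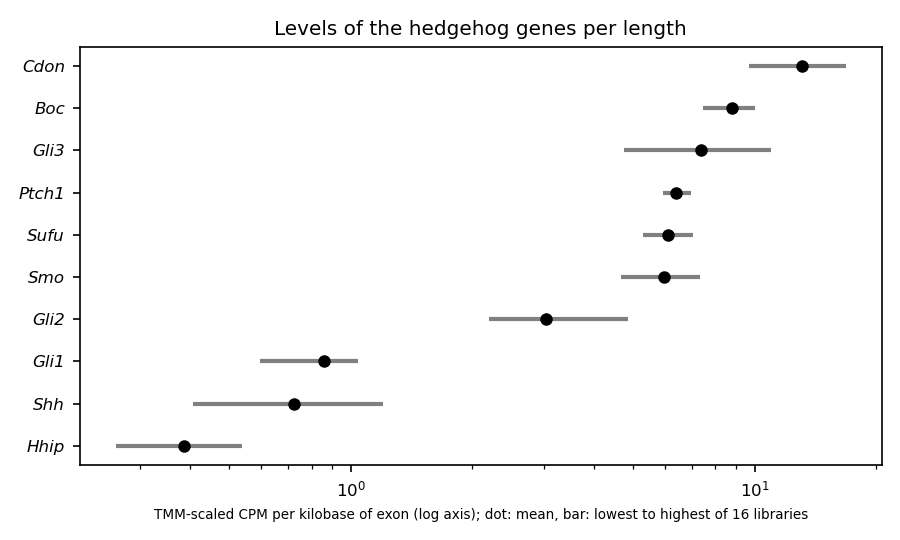
Level of each hedgehog gene per kilobase of exon, in CPM per kilobase on a log axis, with dots at the mean and bars from the lowest to the highest of 16 libraries. Cdon, at a mean of 13.1, stands highest, and Gli1, Shh and Hhip, at 0.86, 0.723 and 0.386, stand apart at the low end.

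Shh, the ligand, had 16 to 113 counts per library. It measured 1.19 to 3.1 CPM after paternal, 1.55 to 3.42 after maternal and 1.53 to 2.1 after dual exposure, against 1.16 to 3.41 in controls. The groups overlapped fully, and the lowest and the highest control were the female pair. Exons of Shh overlap 9530036O11Rik and Gm26894 on the opposite strand, and since the strand setting of the counting is not given, their reads cannot be told apart from those of Shh.

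Ptch1, the receptor and also a target gene, measured 84.1 and 84 CPM in male and 89.1 and 92.9 in female libraries of paternal exposure. After maternal exposure it measured 91.3 and 86.6 in males and 89.7 and 87.4 in females. After dual exposure the values were 87.3 and 96.2 in males and 88.6 and 89.7 in females, against 92.3 and 95.9 in male and 97.7 and 98.7 in female controls. Every maternal library lay below every control, while in paternal and dual exposure 1 library reached into the control range. Ptch1 had the smallest spread of the 10 genes: highest over lowest library was 1.18-fold, and its biological coefficient of variation, the spread between replicates beyond counting error, was 0.0555, against a median of 0.14 over all genes tested. Hhip, a decoy receptor that binds the ligand at the cell surface, had 39 to 166 counts per library. Its range was 2.9 to 3.89 CPM after paternal, 2.38 to 4.88 after maternal and 2.99 to 3.9 after dual exposure, against 3.56 to 4.38 in controls. Low Hhip values were found in the male maternal pair, at 2.38 and 2.98 CPM, while female maternal replicate 1 held the highest value of all libraries. Exons of Hhip overlap Gm27820 on the opposite strand.

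The co-receptors, which bind the ligand alongside Ptch1, spread more. Cdon measured 119 and 116 CPM in male and 96.9 and 107 in female paternal libraries. Its maternal values were 116 and 100 in males and 100 and 92.3 in females, and its dual values 96.7 and 110 in males and 116 and 76.6 in females. Controls measured 74.9 and 85.1 in males and 130 and 78.8 in females. Male controls lay below all 6 exposed male libraries, while the female control pair spanned all 6 exposed female libraries except 1 dual library. Boc ran from 37.9 to 43.8 CPM after paternal, 39.3 to 43 after maternal and 34.7 to 42.1 after dual exposure, against 33.3 to 44.6 in controls. Both male controls, at 33.3 and 34.1 CPM, lay below all other male libraries for Boc too. With 2 against 2 libraries gaps in either direction are common. Of all genes tested 44.1% did not overlap between paternal and control males, 40.1% between maternal and control males and 37.1% between dual and control males. Those higher in the exposed males without overlap were 20.6%, 19.5% and 18%. The share of all genes with both male controls below all 6 exposed male libraries, a stricter pattern, was not counted.

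Among the transducers, Smo, the membrane protein that carries the signal inward, measured 36.9 and 31 CPM in male and 39.9 and 34.1 in female paternal libraries. Its maternal values were 41.1 and 33.6 in males and 33.3 and 31.7 in females. Its dual values were 30.1 and 31.7 in males and 32.6 and 26.2 in females, against 29.8 and 32.6 in male and 38.6 and 35 in female controls. The female dual pair lay below both female controls, as 23.1% of all genes tested did, and 53.4% did not overlap in either direction. The male dual pair overlapped the male controls. Sufu, which binds Gli proteins and restrains them, ran from 45.6 to 48.2 CPM after paternal, 47.4 to 49.7 after maternal and 40.6 to 48.5 after dual exposure, against 41.8 to 54.2 in controls. Its spread of 1.33-fold over all libraries was close to that of Boc, 1.34-fold.

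Gli1, the activator that is itself a target gene, had 49 to 189 counts per library. It measured 4.09 and 3.72 CPM in male and 5.18 and 4.31 in female paternal libraries. Its maternal values were 5 and 4.12 in males and 5.06 and 2.98 in females. Its dual values were 4.41 and 3.75 in males and 5.05 and 4.92 in females, against 3.19 and 4.32 in male and 4.01 and 4.6 in female controls. Both female dual libraries lay above both female controls, as 30.3% of all genes tested did, and all other exposures overlapped the controls of their sex. Exons of Gli1 overlap Arhgap9 and Gm47200 on the opposite strand.

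Gli3, which yields the main repressor form, measured 74 and 80.7 CPM in male and 68.1 and 73.7 in female paternal libraries. Its maternal values were 91.4 and 67.3 in males and 66.5 and 63.8 in females, and its dual values 66.6 and 79.4 in males and 78.4 and 51.3 in females. Controls measured 59.1 and 58.2 in males and 106 and 45.4 in females. The highest and the lowest Gli3 level of all 16 libraries were thus both female controls, 2.32-fold apart. Male controls lay below all exposed males, as for Cdon and Boc, a pattern not counted over all genes. Gli2, mainly an activator, ran from 19.1 to 23.2 CPM after paternal, 17.5 to 25.2 after maternal and 15.1 to 23.7 after dual exposure, against 17.4 to 33.3 in controls, where female replicate 1 alone stood above 18.3. The exons of Gli3 overlap Gm6556 on the opposite strand.

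**Figure D2:**
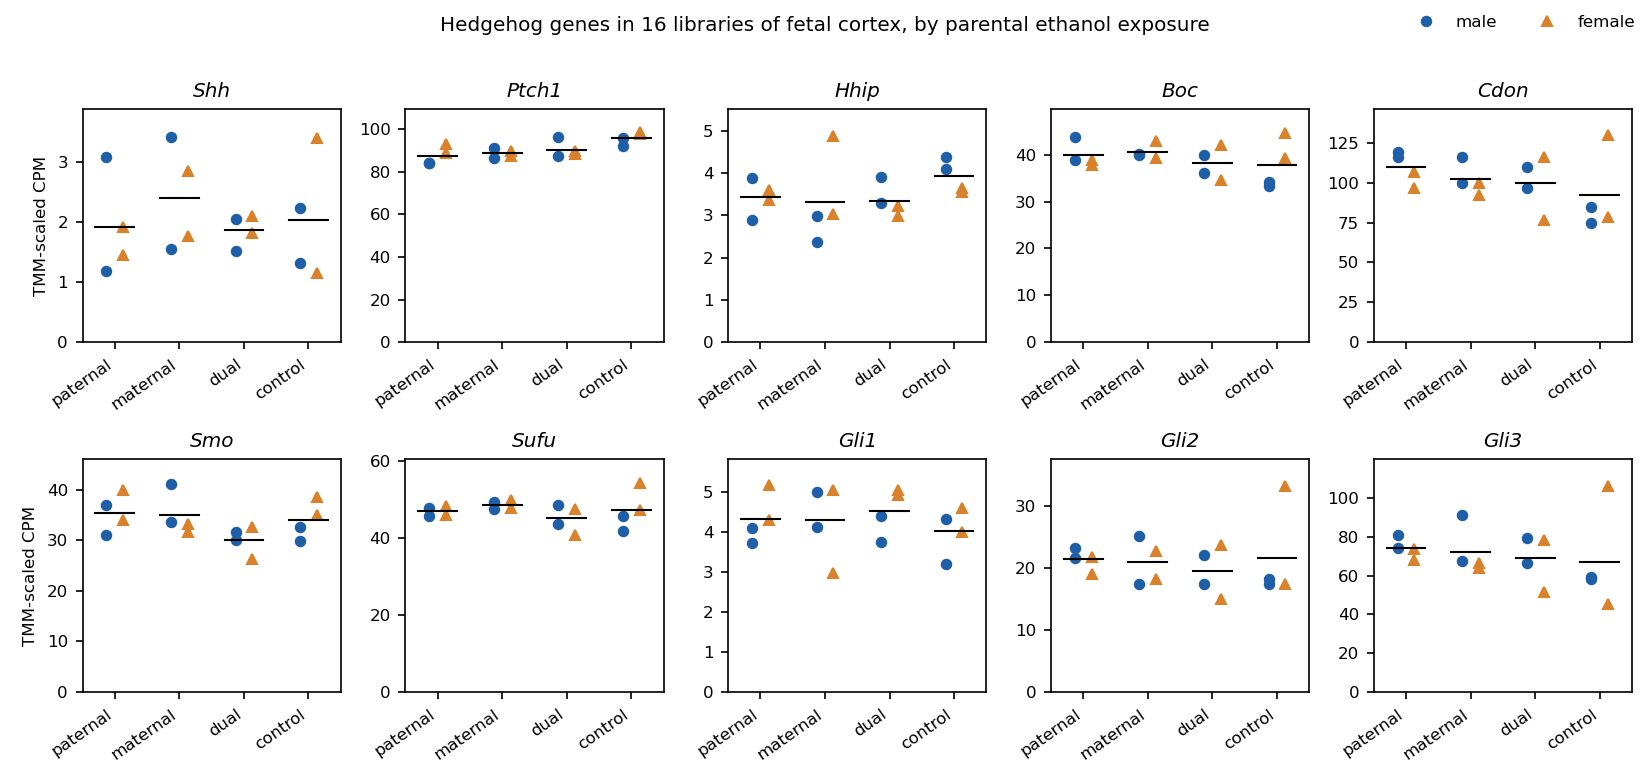
TMM-scaled CPM of each hedgehog gene in every library, 1 panel per gene, by exposure with controls last; points are libraries, by sex. Ptch1 stays between 84 and 98.7 CPM, while the female controls for Gli3 stand at 106 and 45.4 CPM.

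Paternal exposure was compared with control over both sexes, with the male and female differences weighted equally. By edgeR's quasi-likelihood test with Benjamini-Hochberg adjustment 0 of 10 hedgehog genes passed 0.05, and of all genes tested 0% did. At an unadjusted p under 0.05 stood 1 of 10, Ptch1, beside 8.45% of all genes; DESeq2 called 0 of the 10 and 0.102% of all genes. Ptch1 averaged 87.5 ± 4.31 CPM after paternal exposure and 96.2 ± 2.85 CPM in controls (SD, n = 4 each). Its log2 fold change was -0.14 with a 95% interval of -0.24 to -0.03 (edgeR, adjusted p = 0.51). Cdon averaged 110 ± 9.9 CPM after paternal exposure and 92.1 ± 25.4 CPM in controls, a log2 fold change of 0.26 with an interval of -0.01 to 0.54 (edgeR, adjusted p = 0.612; 0.016 with no filter on low counts). The intervals of the target gene Gli1, -0.28 to 0.48, and of Gli3, -0.24 to 0.55, allow differences of up to 0.55 on the log2 scale, so those genes are not shown to be alike in both groups. The median log2 fold change was 0.04 over the hedgehog genes and -0.0093 over all genes tested.

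Maternal exposure gave the same count, 0 of 10, beside 0% of all genes tested by edgeR, and DESeq2 called 0 of the 10 and 0.00928% of all genes. At an unadjusted p under 0.05 stood 1 of 10, again Ptch1, beside 3.79% of all genes. Ptch1 averaged 88.7 ± 2.16 CPM after maternal exposure and 96.2 ± 2.85 CPM in controls (SD, n = 4 each), a log2 fold change of -0.12 with an interval of -0.22 to -0.01 (edgeR, adjusted p = 0.998). It was the 1 hedgehog gene whose 4 maternal libraries did not overlap the 4 controls; of all genes tested, 0.91% were lower without overlap. The intervals of Hhip, -0.64 to 0.12, and Shh, -0.50 to 1.01, were wide. The median log2 fold change was 0.07 over the hedgehog genes and -0.0033 over all genes.

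Dual exposure called 0 of 10 hedgehog genes where edgeR called 3.36% of all genes tested, 724 in number. No hedgehog gene had an unadjusted p under 0.05, beside 19.7% of all genes, and DESeq2 called 0 of the 10 and 4.61% of all genes. Ptch1 averaged 90.4 ± 3.94 CPM after dual exposure and 96.2 ± 2.85 CPM in controls, a log2 fold change of -0.09 with an interval of -0.19 to 0.02 (edgeR, adjusted p = 0.346). Smo averaged 30.1 ± 2.82 CPM after dual exposure and 34 ± 3.74 CPM in controls, a log2 fold change of -0.17 with an interval of -0.36 to 0.03 (edgeR, adjusted p = 0.335). The median was -0.08 over the hedgehog genes and 0.0005 over all genes tested.

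The paternal, maternal and dual values of Ptch1, -0.14, -0.12 and -0.09, share the same 4 control libraries and are not independent of each other. Beside Ptch1, the summed level of 4 hypothalamus markers, of which 3 passed the filter, also lay highest in controls: 5.08 to 8.44 CPM after paternal, 4.65 to 7.99 after maternal and 4.73 to 8.45 after dual exposure, against 8.87 to 15.9 in controls. The defining genes were few, with Sim1 and Otp at 26 to 194 counts per library, Hmx2 at 0 to 30 and Nkx2-4 at 0 to 2. Of these only Otp was higher in every control, at 4.62 to 7.85 CPM, than in every exposed library, at 1.55 to 4.4 CPM. Sim1 overlapped, with female controls at 4.25 and 3.13 CPM and exposed libraries reaching 4.13 CPM. Hmx2 was highest in male maternal replicate 1, at 1.83 CPM. The part of these markers in the Ptch1 values was not tested.

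Between exposures, 0 of 10 hedgehog genes passed for dual against paternal, beside 8.81% of all genes tested by edgeR, and 0 of 10 for dual against maternal, beside 5.76%. DESeq2 also called 0 of the 10 in both, with 9.41% of all genes against paternal and 6.67% against maternal. Smo alone had an unadjusted p under 0.05 in each, beside 24.6% and 21.1% of all genes. Its level of 30.1 ± 2.82 CPM after dual exposure stood against 35.5 ± 3.8 CPM after paternal exposure (n = 4 each), a log2 fold change of -0.23 with an interval of -0.43 to -0.04 (edgeR, adjusted p = 0.132). Against 34.9 ± 4.19 CPM after maternal exposure the log2 fold change was -0.21 (edgeR, adjusted p = 0.202). Without male maternal replicate 1 that value was -0.14. The 6 endothelial and pericyte markers, all of which passed the filter, summed to 239 to 319 CPM in dual libraries, against 350 to 381 in paternal, 345 to 385 in maternal and 247 to 384 in control libraries. The 8 markers of meninges and fibroblasts, which all passed too, summed to 224 to 381 CPM in dual, against 430 to 580 in paternal, 368 to 612 in maternal and 83.5 to 498 in control libraries. Their part in the Smo values was not tested. Non-additivity (what dual exposure adds beyond both single-parent effects summed) called 0 of 10 by edgeR and by DESeq2, beside 4.21% of all genes tested by edgeR and 5.49% by DESeq2. Ptch1 was the 1 hedgehog gene with an unadjusted p under 0.05, beside 19.6% of all genes, at 0.16 on the log2 scale (edgeR, adjusted p = 0.207).

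**Figure D3:**
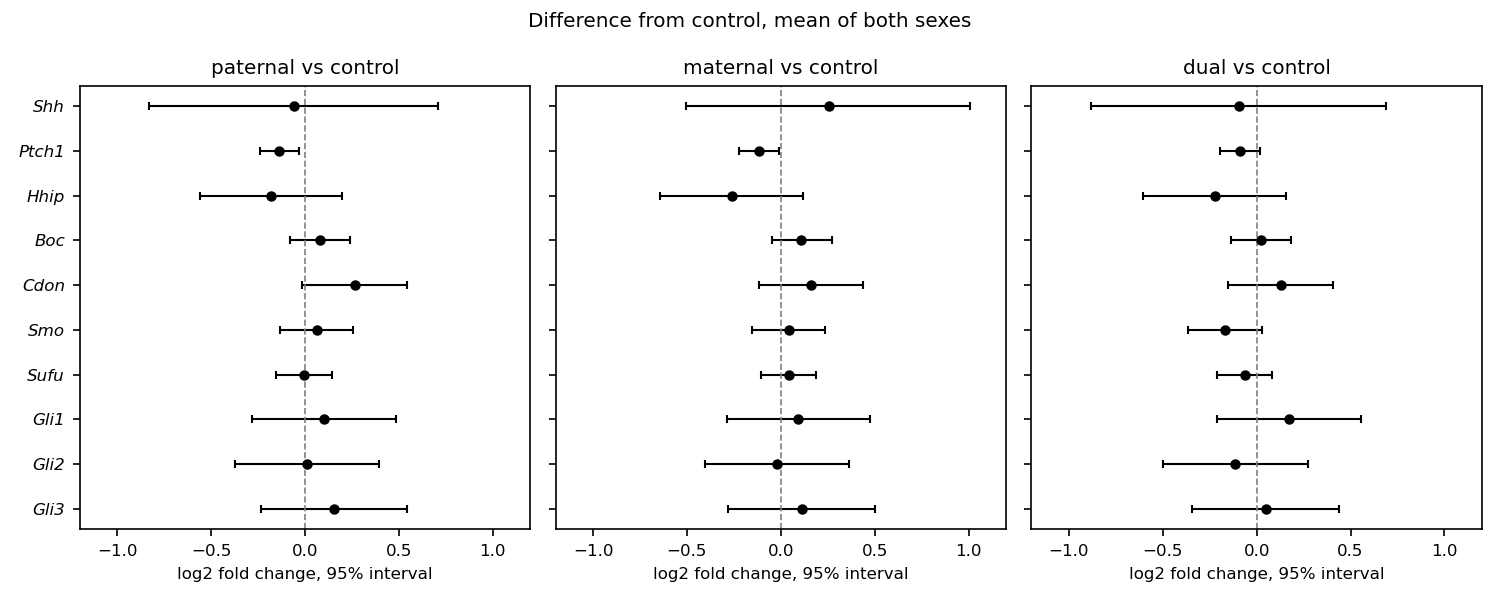
Log2 fold change of each hedgehog gene in the paternal, maternal and dual comparisons with control, with 95% intervals from the edgeR fit; the dashed line marks 0. All Ptch1 values lie below 0, at -0.14, -0.12 and -0.09, with the narrowest intervals, and those of Shh are widest.

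Within males no hedgehog gene passed, and those at an unadjusted p under 0.05 were Cdon, Boc and Ptch1 for paternal and Cdon, Boc and Hhip for maternal exposure. Cdon averaged 118 CPM in paternal and 80 CPM in control males (n = 2 each), a log2 fold change of 0.56 with SE 0.19 (edgeR, adjusted p = 0.359). Boc averaged 41.4 CPM in paternal and 33.7 CPM in control males, a log2 fold change of 0.29 (edgeR, adjusted p = 0.39). Ptch1 averaged 84 CPM in paternal and 94.1 CPM in control males, a log2 fold change of -0.16 (edgeR, adjusted p = 0.449). With no filter on low counts edgeR called Cdon at 0.55 (adjusted p = 6.6e-06) and Gli3 at 0.39 (adjusted p = 0.0211) in paternal males, and with the compared groups fitted alone at 0.56 (adjusted p = 0.000387) and 0.40 (adjusted p = 0.0144). Maternal males showed Cdon at 108 CPM, against 80 CPM in controls (edgeR, adjusted p = 0.603). Hhip was at 2.68 CPM in maternal males, against 4.23 CPM in controls, a log2 fold change of -0.66 (edgeR, adjusted p = 0.592). With no filter Cdon was called in maternal males at 0.43 (edgeR, adjusted p = 0.00245) and Gli3 at 0.43 (adjusted p = 0.00917). With no filter edgeR called 276 genes in all for paternal and 160 for maternal males. With the compared groups alone, which kept the filter, it called 164 genes in all for paternal males. In the filtered fit of all 16 libraries no hedgehog gene passed, and edgeR called 0% of all genes tested in males for each exposure. At an unadjusted p under 0.05 stood 3 of 10 hedgehog genes for paternal exposure in males, beside 10.4% of all genes, 3 of 10 for maternal, beside 7.92%, and 0 of 10 for dual, beside 4.86%. DESeq2 called 0 of the 10 in each, and 0.065%, 0.00464% and 0.00464% of all genes for paternal, maternal and dual exposure in males. Between paternal and control males 6 of 10 hedgehog genes did not overlap, beside the 44.1% of all genes given above, and between maternal and control males 7 of 10, beside 40.1%.

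Within females, Smo gave the smallest adjusted p of all 160 tests of hedgehog genes. It averaged 29.4 CPM in dual and 36.8 CPM in control females (n = 2 each), a log2 fold change of -0.32 with an interval of -0.59 to -0.05 (edgeR, adjusted p = 0.0993). In that comparison edgeR called 0 of 10 hedgehog genes and 15% of all genes tested, and DESeq2 0 of 10 and also 15%. At an unadjusted p under 0.05 stood 1 of 10 hedgehog genes, beside 29.9% of all genes. Median log2 fold changes were -0.21 over the hedgehog genes and 0.02 over all genes. Ptch1 averaged 88.5 CPM in maternal and 98.2 CPM in control females, a log2 fold change of -0.15 (edgeR, adjusted p = 0.98). For paternal and for maternal exposure in females edgeR called 0 of 10 and 0% of all genes tested, with 0 and 1 of 10 at an unadjusted p under 0.05 beside 7.89% and 4.7% of all genes. DESeq2 called 0 of the 10 in both, and 0.19% and 0.00464% of all genes. The female dual libraries are also those with a raised share of TEC and sense-intronic counts, and its part in the Smo value was not tested.

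Between the sexes no hedgehog gene passed. Over all exposures edgeR called 0 of 10 in males against females, with 0 at an unadjusted p under 0.05, beside 0.877% and 11.4% of all genes tested, and DESeq2 0 of 10 and 1.43% of all genes. Gli1 averaged 4.08 CPM in males and 4.51 CPM in females (n = 8 each), a log2 fold change of -0.15 with an interval of -0.42 to 0.12 (edgeR, adjusted p = 0.711). Tests of the difference itself, the male minus the female effect, called 0 of 10 for paternal and for maternal exposure, beside 0% of all genes in both, and 0 of 10 for dual, beside 3.5%. DESeq2 called 0 of the 10 in all 3, and 0.116%, 0.065% and 4.99% of all genes. The paternal effect of Boc was 0.42 higher in males than in females on the log2 scale (edgeR, adjusted p = 0.369) and that of Cdon 0.58 higher (adjusted p = 0.449). The maternal effect of Smo was 0.44 higher (edgeR, adjusted p = 0.462) and that of Hhip was -0.79 in males relative to females (adjusted p = 0.487). Without female maternal replicate 1 the Hhip value was -0.41, and Smo was 0.29 without male maternal replicate 1. At an unadjusted p under 0.05 stood 2 of 10 hedgehog genes for paternal, 2 of 10 for maternal and 0 of 10 for dual exposure, beside 10.8%, 9.86% and 20.4% of all genes tested.

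Cdon and Gli3 depended on which female control was kept. Without female control replicate 1, edgeR called both of them higher after paternal exposure, at log2 fold changes of 0.47 (adjusted p = 0.0181) for Cdon and 0.52 (adjusted p = 0.0188) for Gli3. It then also called both after dual exposure, at 0.33 (adjusted p = 0.0494) for Cdon and 0.41 (adjusted p = 0.0321) for Gli3, and in non-additivity, at -0.51 (adjusted p = 0.0254) and -0.59 (adjusted p = 0.021). Without female control replicate 2, the paternal value of Gli3 was -0.09 and that of Cdon 0.11, neither called. The sex difference of the paternal effect was then called for Cdon at 0.91 (edgeR, adjusted p = 0.0148), Gli2 at 1.04 (adjusted p = 0.0415) and Gli3 at 0.98 (adjusted p = 0.0183). The sex difference of the maternal effect was called for Cdon at 0.87 (edgeR, adjusted p = 0.0242) and Gli3 at 1.13 (adjusted p = 0.0111), and that of the dual effect for Cdon at 0.81 (adjusted p = 0.0146), Gli2 at 0.94 (adjusted p = 0.0389) and Gli3 at 1.02 (adjusted p = 0.00793). Without replicate 1 the sex difference of the paternal effect of Cdon was 0.19, not called. Within females, without replicate 2, Gli3 was lower than in the remaining control, at -0.69 after maternal and -0.71 after dual exposure. Gli2 was then also lower after dual exposure, at -0.78. Leaving out female dual replicate 1 gave the other change of a call, Smo at -0.50 in dual against control females (edgeR, adjusted p = 0.049), whereas without female dual replicate 2 the value was -0.18 and not called. The same fits also called more genes in all than the fit of all libraries: without replicate 1, 685 for paternal, 2081 for dual exposure and 2262 for non-additivity. Without replicate 2 they called 1080, 611 and 2851 for the sex differences of the paternal, maternal and dual effects, and 337 and 4025 for maternal and dual exposure in females.

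The female control pair differed in other genes as well. Replicate 1 over replicate 2 was 2.32 for Gli3, 1.92 for Gli2, 1.65 for Cdon and 2.94 for Shh, against 0.99 for Ptch1, 1.03 for Hhip and 0.872 for Gli1. The proliferation genes Mki67 and Top2a, chosen after values were seen, stood at 469 and 400 CPM in replicate 1 and at 248 and 188 CPM in replicate 2. The summed radial glia markers were 1200 CPM in replicate 1 and 982 in replicate 2, and those of meninges and fibroblasts 83.5 and 402. Among the radial glia markers Fabp7, at 254 and 279 CPM, and Slc1a3, at 155 and 164, went the other way. The thalamus and diencephalon markers summed to 301 and 332 CPM. Of them Tcf7l2 stood at 24.5 and 68.7 CPM, while Lhx2 and Foxp2 were higher in replicate 1. The female dual pair differed the same way for Gli3 at 1.53, Gli2 at 1.57 and Cdon at 1.51, but not for Shh at 0.867 or for the meninges markers, at 224 and 229 CPM. Mki67 stood there at 381 CPM in replicate 1 and 243 in replicate 2. The choroid plexus markers summed to 10.1 CPM in dual replicate 1 and 175 in replicate 2. Over exposures the radial glia sum was 1090 to 1190 CPM for paternal, 996 to 1270 for maternal and 920 to 1130 for dual, against 982 to 1200 for control libraries. The part of proliferating cells, or of tissue other than cortex, in the Cdon, Gli2 and Gli3 values was not tested.

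Across the 16 libraries the target genes did not follow the ligand or each other. Of 6 relations among Shh, Gli1, Ptch1 and Hhip, Pearson's r ran from -0.0978 for Gli1 with Hhip to 0.188 for Shh with Gli1 on log2 CPM. The adjusted permutation p was 0.956 for each (two-sided, 100000 resamples; 0.97 for Spearman's rho). Counting error is largest for Shh, Hhip and Gli1, which limits what r could show at this depth. All 45 pairs of the 10 genes were examined after these values had been seen. Of them 10 had an adjusted permutation p under 0.05 for Pearson's r, all positive, and none of those 10 pairs held Gli1, Ptch1, Hhip or Shh. By Spearman's rho 6 of the 10 passed. The share of pairs among all genes tested that would pass was not computed, so the count is not shown to be particular to hedgehog genes.

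The closest were Cdon with Gli3 at r = 0.918 and rho = 0.926, Gli2 with Gli3 at 0.879 and 0.824, and Cdon with Gli2 at 0.864 and 0.906, each with an adjusted permutation p of 0.00045 for r. Without the 2 libraries farthest from the median of the x measure r was 0.942, 0.786 and 0.843. Within males (n = 8) r was 0.88, 0.883 and 0.815, and within females (n = 8) 0.97, 0.915 and 0.942. Taken as deviations from the group means, r was 0.943, 0.946 and 0.961, so the 3 genes moved together among libraries of the same sex and exposure. Boc had r = 0.805 with Sufu, 0.785 with Cdon and 0.766 with Gli2 (adjusted permutation p of 0.00157, 0.00277 and 0.00277). Its r of 0.597 with Gli3 did not pass (adjusted permutation p of 0.0561). The r of 0.716 for Sufu with Gli2 was 0.348 without the 2 farthest libraries and so rests on them. The remaining 3 pairs were Smo with Sufu at 0.647, Smo with Gli2 at 0.623 and Cdon with Sufu at 0.612, with adjusted permutation p of 0.0394, 0.0468 and 0.0468. These 3 pairs and Sufu with Gli2 did not pass by Spearman's rho, with adjusted permutation p of 0.173, 0.138, 0.202 and, for Sufu with Gli2, 0.173.

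**Figure D4:**
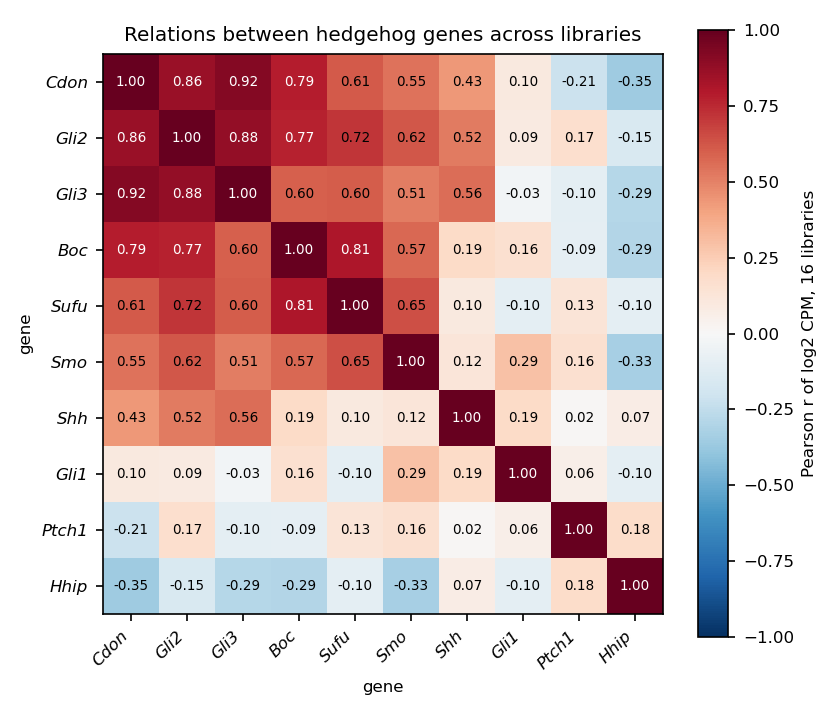
Pearson's r over 16 libraries for all 45 pairs of hedgehog genes, on log2 CPM. Cdon, Gli2 and Gli3 form a block of 0.864 to 0.918, and the pairs of Gli1, Hhip, Shh and Ptch1 among themselves lie between -0.0978 and 0.188.

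**Figure D5:**
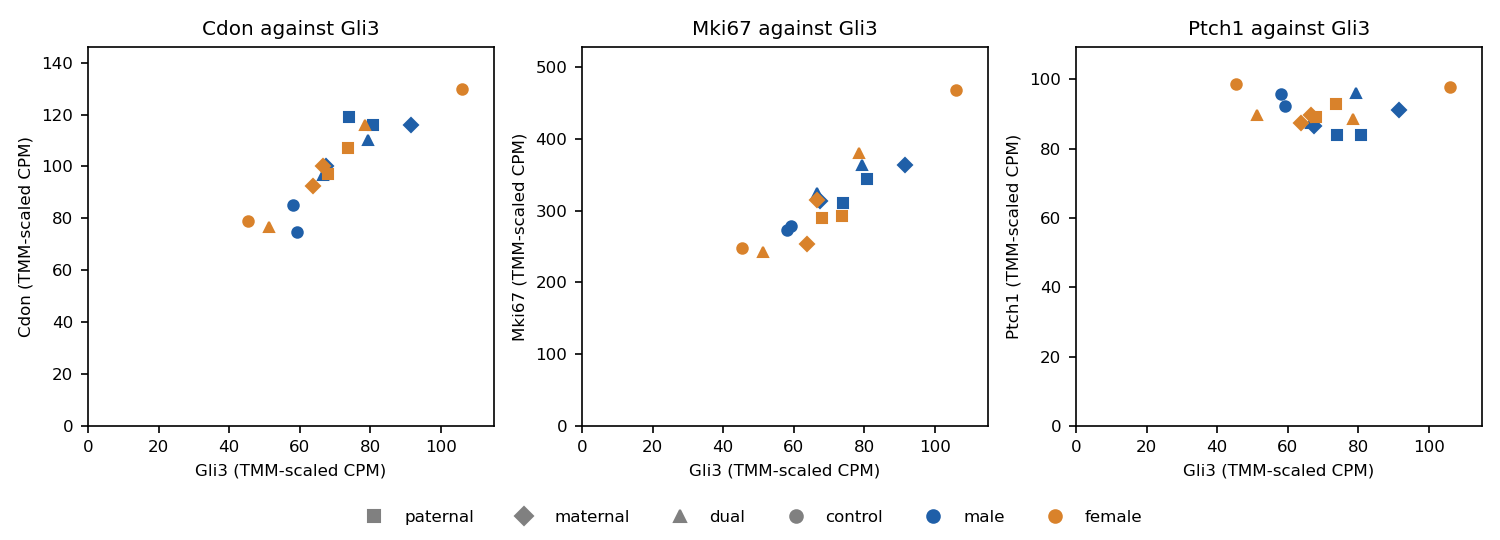
Gli3 against Cdon, against Mki67 and against Ptch1 in TMM-scaled CPM, 1 point per library, by exposure and sex. Cdon follows Gli3 at r = 0.918, with both female controls at the ends of the Gli3 axis (106 and 45.4 CPM), while Ptch1 stays between 84 and 98.7 CPM.

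Of 50 other hedgehog pathway genes 48 were tested. Ihh, another hedgehog ligand, had at most 7 counts in a library and Foxa2 had 0. By edgeR 0 of the 48 passed for paternal and 0 for maternal exposure, with 7 and 1 at an unadjusted p under 0.05, beside 8.45% and 3.79% of all genes tested. For dual exposure 1 of 48 passed, beside 3.36% of all genes, and was lower, Mgrn1, a ubiquitin ligase that lowers Smo at the cell surface. Its log2 fold change was -0.23 (edgeR, adjusted p = 0.0286), and against paternal exposure -0.21 (adjusted p = 0.0284). Against paternal exposure too it was the 1 of 48 called, beside 2.16% of all genes called lower. Among protein-coding genes alone edgeR called 0 genes for dual exposure against control, so that call of Mgrn1 was lost there. Mgrn1 measured 96.5 and 85.7 CPM in male and 90.9 and 89.9 in female dual libraries, against 107 and 96.1 in male and 109 and 116 in female controls. Among the smallest p-values after paternal exposure, which did not pass, were those of Disp2 at -0.34 (edgeR, adjusted p = 0.421), Disp1, which releases the ligand, at -0.36 (adjusted p = 0.438), and Olig2 at -0.34 (adjusted p = 0.47).

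Within females dual exposure called 5 of the 48 genes, all lower. They were kinases that act on Smo or the Gli proteins, and Mgrn1: Prkaca, the catalytic subunit of protein kinase A, at -0.27 (edgeR, adjusted p = 0.0105), Csnk1d at -0.28 (adjusted p = 0.0314), Csnk1e at -0.23 (adjusted p = 0.0267), Grk2 at -0.23 (adjusted p = 0.0493) and Mgrn1 at -0.31 (adjusted p = 0.0131). The 2 female dual libraries are those with 0.872 and 0.86% of counts on TEC and sense-intronic genes, and their endothelial and pericyte markers summed to 273 and 239 CPM, against 247 and 362 CPM in female controls; the part of either in these calls was not tested. Prkaca measured 119 and 113 CPM in dual females, against 138 and 141 CPM in control females. Of 20 genes of the primary cilium, where the pathway is transduced, 3 were called higher in dual females: Tmem67 at 0.51 (edgeR, adjusted p = 0.0144), Rpgrip1l at 0.31 (adjusted p = 0.0232) and Ttc21b at 0.34 (adjusted p = 0.032). Tmem67, of the transition zone, measured 24.3 and 29.9 CPM in dual females, against 21.3 and 16.8 CPM in control females. Dync2h1, the motor of retrograde transport in the cilium, was called higher for dual against paternal exposure at 0.28 (edgeR, adjusted p = 0.00518). It was the 1 of 20 ciliary genes called there, beside 6.65% of all genes called higher. The 5 of 48 lower and 3 of 20 higher genes stand beside 5.64% of all genes called lower and 9.34% called higher in dual against control females. Calls over all genes in that comparison fell from 3229 to 711 among protein-coding genes alone and to 1058 with the compared groups alone. Whether these pathway and ciliary genes stayed called there was not followed.

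The patterns most like that of Gli1 over 16 libraries, by Pearson's r on log2 CPM among 12286 genes, were those of Cdk5rap1 (0.847), Trim17 (0.784), Cep131 (0.734), Lrguk (0.717) and Arhgef40 (0.713). For Shh they were Gys1 (0.8), Mpdz (0.759), Psrc1 (0.738), Bbx (0.734) and Ccp110 (0.733). For Gli3, added after values were seen, Bub1 (0.969), Smc4 (0.966), Hmgn2 (0.959), Ect2 (0.957) and Top2a (0.956) were closer than any hedgehog gene. The nearest to Ptch1 were Arg2 (0.758), Prox1 (0.751), Pomt2 (0.731), Rptor (0.727) and Lhx1 (0.726). These are descriptions over libraries that differ in depth by sex, and the highest of many.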

How the data were processed

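Total RNA of fetal cortex was sequenced in 16 libraries, and raw counts per gene were deposited by the authors, 1 file for each. Per the submitters' processing notes, reads were handled with Trimmomatic, STAR and featureCounts on the build GRCm39 (mm39); tool versions, annotation release and strand setting: not given in the sources used here. Symbols were matched by ID for 52083 of 55359 IDs with GENCODE M21 on GRCm38, another build, used for names, classes and exon lengths alone.

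After filterByExpr (minimum count 10, minimum total 15) and TMM scaling, edgeR 4.0.16 in R 4.3.3 fitted 1 quasi-likelihood model of the 8 group means (glmQLFit), and glmQLFTest gave two-sided tests. Residual degrees of freedom were 8, and the median prior added 8.81. Benjamini-Hochberg adjustment ran over all 21543 genes within each comparison, with a threshold of 0.05. DESeq2 1.42.0 was an alternative. Intervals are 95% intervals of the fit; counting error sets how far counts of Shh, Hhip and Gli1 can be read. Pearson and Spearman relations used log2 CPM (prior count 2) with 100000 permutations in SciPy 1.17.1. The scripts were tested on simulated data. Replicates of all groups differed by more than sampling noise.

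The genes and lists were chosen with earlier results of these data known. All 10 hedgehog genes are named; other pathway and ciliary genes were open to naming where they passed in a comparison or were among the 4 of smallest p per exposure, and the 5 genes of highest r for Gli1 and Shh. Lists are described by counts and medians, with no test. Alternatives were DESeq2, its size factors, an unfiltered table, a replicate block, the compared groups alone, protein-coding genes alone and leaving out each library; a fit without both female dual libraries was chosen after seeing the data. A gene that met the naming rule is not reported here.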

Additional observations from a re-analysis of the deposited data

Results flagged for a closer look

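Each hedgehog gene was screened for a library far from the other 3 of its exposure, in 40 sets of 4 libraries. A gap of this size is met by chance in about 1 of 20 sets, and 3 sets met it. Gli2 stood at 33.3 CPM in female control replicate 1, against 17.4 to 18.3 CPM in the other controls. Gli3 stood at 91.4 CPM in male maternal replicate 1, against 63.8 to 67.3 CPM in the other maternal libraries. Boc stood at 43.8 CPM in male paternal replicate 1, against 37.9 to 38.9 CPM in the other paternal libraries. That library had 14.2% of its counts on gene IDs without a symbol, and the part of this in the Boc value was not tested.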

How the results depend on the processing

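DESeq2, its size factors, the replicate block and protein-coding genes alone changed no count of hedgehog genes called, which stayed at 0. A fit without both female dual libraries was run for the 9 comparisons that do not use them and gave 0 in each. Replicate numbers did not pair the libraries: over 28 pairs of groups, deviations correlated at -0.143 to 0.183, and 1 pair exceeded 0.1. With no filter edgeR called 1 (Cdon) for paternal exposure, 1 (Cdon) for its sex difference, 2 (Cdon, Gli3) each for the sex differences of the maternal and dual effects, 1 (Cdon) for non-additivity, and 2 (Cdon, Gli3) each for paternal and maternal exposure in males. Over all genes the fits with no filter called 334, 278 and 1542 for the sex differences of the paternal, maternal and dual effects. They called 1808 for non-additivity, and 276 and 160 for paternal and maternal exposure in males. With the compared groups alone, 2 (Cdon, Gli3) were called for paternal exposure in males, beside 164 of all genes. The cause was not tested.

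Leaving out each library gave 0 to 2 calls for paternal, 0 for maternal and 0 to 2 for dual exposure, 0 to 2 for non-additivity, and 0 to 3, 0 to 2 and 0 to 3 for the sex differences of paternal, maternal and dual effects. Within females it gave 0, 0 to 1 and 0 to 2 for paternal, maternal and dual exposure, and 0 in all other comparisons. Over all genes, paternal calls of 0 became 321 with no filter and 0 to 685 leaving out a library; maternal calls 79 and 0 to 116; dual calls of 724 became 1345 and 134 to 2081, 336 with the compared groups alone and 0 among protein-coding genes.

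Of 300 other values of hedgehog gene fold changes 1 reversed: Sufu after paternal exposure, 0.014 with the compared groups alone, against -0.0054. On deviations from group means r was 0.431 for Gli1 with Hhip and -0.259 for Ptch1 with Hhip, reversed (adjusted permutation p of 0.535). Leaving out each library in turn reversed 37 values, of genes whose log2 fold changes against control then spanned 0. After paternal exposure the range was -0.5 to 0.429 for Shh, -0.0541 to 0.0483 for Sufu, -0.00154 to 0.215 for Gli1, -0.185 to 0.286 for Gli2 and -0.0862 to 0.523 for Gli3. After maternal exposure the range was -0.0795 to 0.746 for Shh, -0.0307 to 0.115 for Smo, -0.00188 to 0.101 for Sufu, -0.117 to 0.263 for Gli1, -0.215 to 0.256 for Gli2 and -0.127 to 0.482 for Gli3. After dual exposure the range was -0.388 to 0.389 for Shh, -0.0533 to 0.0899 for Boc, -0.0402 to 0.33 for Cdon, -0.314 to 0.157 for Gli2 and -0.196 to 0.413 for Gli3.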
